A study of Mus musculus with 9 samples.

Results

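The members described here are the assembled loci without a gene name in an RNA-seq table of fetal mouse brain, that is, every row whose gene field holds only a dash. They number 3871 of 27095 loci, or 14.3%, and the other 23224 loci carry the name of a gene. Members were grouped by the span in the locus field: 314 spanned under 200 bp, 2932 spanned 200 to 2000 bp and 625 spanned more than 2000 bp. The choice used no measured level or ratio, but an unnamed locus generally enters such a table through assembled reads, whereas a named one can be listed without reads. In Control, 7 members and 4933 named loci are listed at 0, so levels of the members and of named loci are not compared on equal terms.

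The 9 fetuses were wild-type at gestational day 17, of the strain C57BL/6 in the labels and C57BL/6J in the methods, with 3 in each of 3 groups. Dams of the Control group were injected with lactated Ringer's solution on gestational day 7, and dams of both ethanol groups with 2.9 g/kg EtOH on the same day. Ethanol Unaffected fetuses lacked the ocular and cortical patterning defects that define the Ethanol Affected fetuses, so both ethanol groups share the exposure and differ in the outcome. They also differed in sex-linked genes. Xist stood at 0.0210 FPKM in Ethanol Unaffected and 10.3 FPKM in Ethanol Affected, and the Y-linked gene Ddx3y at 8.40 and 0.00906 FPKM. Outcome and sex therefore cannot be told apart between them. Fetal brain is the labelled tissue, while the methods name the cortex. The cortical neuron markers Neurod6 at 409, 378 and 416 FPKM and Tbr1 at 75.7, 62.1 and 98.3 FPKM were high in Control, Ethanol Unaffected and Ethanol Affected, in that order, while the hindbrain gene En2 stood at 0.0265, 0.0382 and 0.0304 FPKM. The thalamic genes Tcf7l2 (4.18, 2.29 and 2.39 FPKM), Lhx9 (3.72, 3.30 and 3.70 FPKM) and Gbx2 (1.02, 1.23 and 0.659 FPKM) were detected, with Tcf7l2 highest in Control. Other cell types were present too, so the tissue was not purely cortical neurons. The choroid plexus genes Ttr (970, 1291 and 1077 FPKM) and Folr1 (9.68, 11.6 and 10.4 FPKM) were both highest in Ethanol Unaffected and lowest in Control. The erythroid gene Alas2 (18.9, 25.2 and 17.8 FPKM) and the Hba-a1 and Hba-a2 rows (200, 263 and 163 FPKM, and 236, 304 and 189 FPKM) were highest in Ethanol Unaffected and lowest in Ethanol Affected. The microglial genes C1qa (17.1, 17.0 and 12.6 FPKM), Cx3cr1 (3.86, 3.65 and 3.69 FPKM) and Csf1r (4.94, 4.34 and 5.67 FPKM) shared no order of the groups, nor did the meningeal genes Dcn (31.6, 28.1 and 22.1 FPKM) and Col1a1 (13.7, 12.5 and 14.6 FPKM). The part of these cell types in the results was not tested. Fewer cells of a type and less RNA per cell cannot be told apart in such bulk tissue.

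FPKM counts sequenced fragments relative to transcript length and library size, and the deposited table gives 1 FPKM per group and locus. No spread between fetuses could be computed, so every ratio below is a description of 3 group values, without a test. Triplets of values are always in the order Control, Ethanol Unaffected, Ethanol Affected.

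As background, a transcript assembler joins overlapping reads into loci and gives a locus a name where it meets a gene of the guiding annotation. What remains unnamed can be unannotated RNA, an extension of a gene beyond its annotated ends, RNA of a repeated or pseudogene sequence, or a structured small RNA whose gene was missing from the guide. Among the latter, Y RNAs are small cytoplasmic partners of the Ro protein, 7SK holds the elongation factor P-TEFb in an inactive complex, and small nuclear RNAs build the spliceosome. A processed pseudogene is a copy of an mRNA set back into the genome, often nearly identical to its parent, and short reads from either can fit both.

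The sequences of 5 small RNA genes met by members are shown because they tie an unnamed locus to a known transcript. They were read from GENCODE M21 transcripts (GRCm38), 5′ to 3′, with the bases inside the assembled locus in capitals. Rny3 is at chr6:47781624-47781725 on the plus strand, Rny1 at chr6:47788069-47788180 on the minus strand, the small nuclear RNA genes Gm24265 and Gm24407 at chr5:115489459-115489599 and chr5:115490254-115490394 on the plus strand, and the first 300 of the 331 bases of Rn7sk at chr9:78175334-78175633 on the minus strand.
Rny3: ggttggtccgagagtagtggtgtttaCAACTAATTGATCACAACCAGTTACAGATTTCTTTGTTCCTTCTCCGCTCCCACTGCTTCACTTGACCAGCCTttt
Rny1: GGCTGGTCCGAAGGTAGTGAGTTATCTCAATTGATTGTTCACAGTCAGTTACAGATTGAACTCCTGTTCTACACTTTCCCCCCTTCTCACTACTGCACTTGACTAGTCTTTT
Gm24265: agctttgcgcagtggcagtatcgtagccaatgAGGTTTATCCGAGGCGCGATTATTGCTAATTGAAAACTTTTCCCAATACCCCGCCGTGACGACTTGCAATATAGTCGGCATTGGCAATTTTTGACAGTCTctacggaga
Gm24407: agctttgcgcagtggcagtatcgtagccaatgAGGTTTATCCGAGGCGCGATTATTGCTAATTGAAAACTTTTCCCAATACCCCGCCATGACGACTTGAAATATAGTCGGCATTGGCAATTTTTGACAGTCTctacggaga
Rn7sk: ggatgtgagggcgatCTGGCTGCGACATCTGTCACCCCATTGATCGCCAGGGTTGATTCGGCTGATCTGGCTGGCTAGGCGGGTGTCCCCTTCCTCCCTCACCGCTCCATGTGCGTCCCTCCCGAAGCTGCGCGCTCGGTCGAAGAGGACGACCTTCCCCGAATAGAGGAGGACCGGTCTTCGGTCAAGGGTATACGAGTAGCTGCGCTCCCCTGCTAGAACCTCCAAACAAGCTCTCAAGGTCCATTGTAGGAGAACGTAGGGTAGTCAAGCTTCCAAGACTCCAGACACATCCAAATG
The Rny3 locus lay wholly inside its gene and covered 73 of its 102 bases. The Rny1 locus covered all 112 bases of its gene and 55 bases outside it. The loci at Gm24265 and Gm24407 each covered the same 100 of 141 positions, and these stretches differed at 2 bases.

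Processed pseudogenes gave the second set of sequences, shown because a short locus can hardly be told from the parent mRNA. Of the 314 short loci, 90 lay inside a single annotated exon and could be read this way, among them 20 of the 40 that overlapped a pseudogene exon. An ungapped search of all GENCODE M21 transcripts of other genes found a stretch at least 95% identical for 11 of these 20 pseudogene loci, against 1 of 26 in lncRNA exons and 2 of 41 in protein-coding exons. For 2 of them, in Gm5182 and Gm4972, the match was exact. Capitals mark the longest run shared with a transcript of Acaca for Gm5182, Prrc2c for Gm4972, Tent2 for Gm15975 and Fbxo21 for Gm5403, which lie at chr12:10154764-10154819 (plus strand), chr7:105412905-105412998 (minus strand), chr5:55624802-55624857 (plus strand) and chrX:128060295-128060387 (minus strand).
Gm5182: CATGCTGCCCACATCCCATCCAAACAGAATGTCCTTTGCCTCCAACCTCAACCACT
Gm4972: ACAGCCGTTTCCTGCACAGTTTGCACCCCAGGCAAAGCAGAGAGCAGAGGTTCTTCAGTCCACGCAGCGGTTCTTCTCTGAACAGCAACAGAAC
Gm15975: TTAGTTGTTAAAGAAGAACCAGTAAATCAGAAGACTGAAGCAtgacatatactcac
Gm5403: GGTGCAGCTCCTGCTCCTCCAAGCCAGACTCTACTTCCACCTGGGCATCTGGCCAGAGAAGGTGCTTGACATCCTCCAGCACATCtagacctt
A longer member, in Gm5776 at chr7:54412171-54412390 on the minus strand, is shown for its likeness to Mrps33, with capitals used in the same way.
Gm5776: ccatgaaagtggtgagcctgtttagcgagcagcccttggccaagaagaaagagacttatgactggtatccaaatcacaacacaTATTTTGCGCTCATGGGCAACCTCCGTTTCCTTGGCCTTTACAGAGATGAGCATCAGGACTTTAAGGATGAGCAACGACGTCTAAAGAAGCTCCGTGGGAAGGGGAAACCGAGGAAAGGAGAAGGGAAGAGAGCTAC
The Tent2 match had 1 mismatch in 56 bases, the Fbxo21 match 2 in 93 and the Mrps33 match 1 in 220.

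Levels at these pseudogene loci could be set beside the named genes they resemble. The locus in Gm5182 stood at 699, 321 and 1465 FPKM, and Acaca, the acetyl-CoA carboxylase of fatty acid synthesis, at 18.2, 15.7 and 21.8 FPKM. Both were lowest in Ethanol Unaffected and highest in Ethanol Affected, but the range was far wider at the short locus. The Gm4972 locus stood at 162, 140 and 189 FPKM and Prrc2c at 10.7, 8.15 and 14.9 FPKM, again in the same order of groups. The Gm5403 locus stood at 582, 687 and 773 FPKM and Fbxo21 at 53.1, 50.2 and 61.3 FPKM, which differ in the order of Control and Ethanol Unaffected. The Gm15975 locus stood at 990, 321 and 1435 FPKM, whereas Papd4, the name the table uses for Tent2, stood at 16.1, 17.5 and 17.1 FPKM and hardly varied. A locus in Gm5308 at chr6:67734869-67734940, with 1 mismatch to Tuba1a, was at 68.3, 168 and 75.3 FPKM. Tuba1a itself is listed at 0 in all groups with a mark of the authors' program for a region with too many fragments to process, so its zeros are no measurement.

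Unnamed loci held most of the summed FPKM: 63.1% in Control, 69.3% in Ethanol Unaffected and 68.0% in Ethanol Affected. Nearly all of that came from the 314 short loci, with 61.6%, 67.9% and 66.5% of the sum over all loci. The 2932 loci of 200 to 2000 bp held 1.32%, 1.22% and 1.29%, and the 625 longer ones 0.233%, 0.121% and 0.159%. In Control, the 3922 FPKM of the longer ones include 1417 FPKM at a mitochondrial locus without usable values. Their higher share in Control is therefore not read as a difference. A few loci carried these shares: the 3 highest, of 40 to 71 bp, held 34.3%, 41.2% and 38.1% of the sum over all loci, and the 10 highest held 47.4%, 55.4% and 52.1%. Named loci under 200 bp, of which there were 254, held 0.0465%, 0.0438% and 0.0682%.

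These are shares of length-normalised values, not of fragments. Multiplying each FPKM by the span gives the most fragments that an unspliced locus can have contributed, if FPKM was scaled to the mapped fragments. Summed over the short loci, this limit was 6.26%, 8.86% and 6.88% of the fragments. Reads were 50 bases long, and 25 members had a span below that length. The median of mean FPKM over the groups was 5180 at 40 to 59 bp (33 loci), 294 at 60 to 99 bp (37 loci), 32.5 at 100 to 149 bp (91 loci) and 9.56 at 150 to 199 bp (153 loci). In the same order the median limit was 249, 19.9, 3.98 and 1.67 FPKM times kilobases. The 20 loci just below 200 bp had a median mean FPKM of 5.44 and the 20 just above 5.07, and the 20 on each side of 2000 bp had 2.00 and 1.24, so neither limit marks a step in level comparable to that within the short loci.

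**Figure D1:**
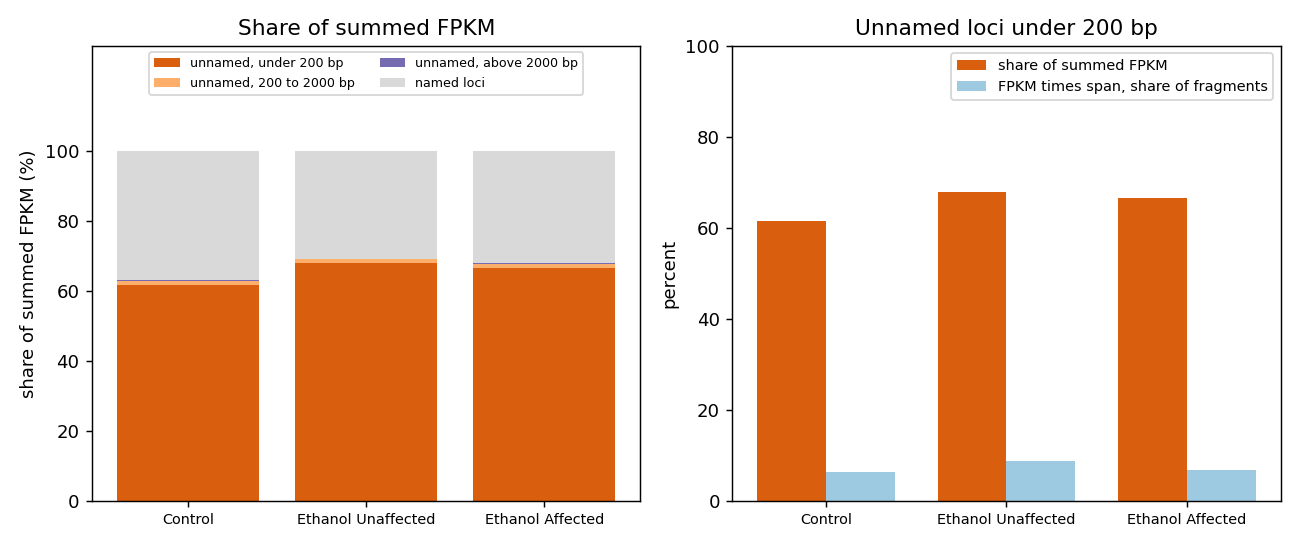
Left, stacked bars give the share of summed FPKM in percent for each group, split into unnamed loci of 3 span classes and named loci; unnamed loci under 200 bp take 61.6%, 67.9% and 66.5%. Right, the same shares of the short loci stand beside the limit from FPKM times span, which is 6.26%, 8.86% and 6.88% of the fragments.

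Position along the chromosomes and order in the table separated the members further. Chromosomes 7, 5 and 2 held the most members, with 292, 291 and 278, chromosome Y held 4, and the mitochondrial genome 2. Their share of all loci ran from 11.2% on chromosome X to 19.6% on chromosome 12 among the autosomes and X. The level was far less even: loci of chromosome 2 held 33.6%, 33.9% and 33.5% of the unnamed FPKM, and those of chromosome 10 held 21.1% in Control and 24.2% in Ethanol Unaffected. The highest and the second highest member lie on these chromosomes. Identifiers pass through the chromosomes 3 times. In the first run 10547 of 10612 named loci with a known strand were on the plus strand, and in the second 10593 of 10657 were on the minus strand. The third run held 5 named loci and 3487 of the 3871 members, among them all 314 short loci, so for these the order gives no strand. The other 384 members stood in the runs with a strand.

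**Figure D2:**
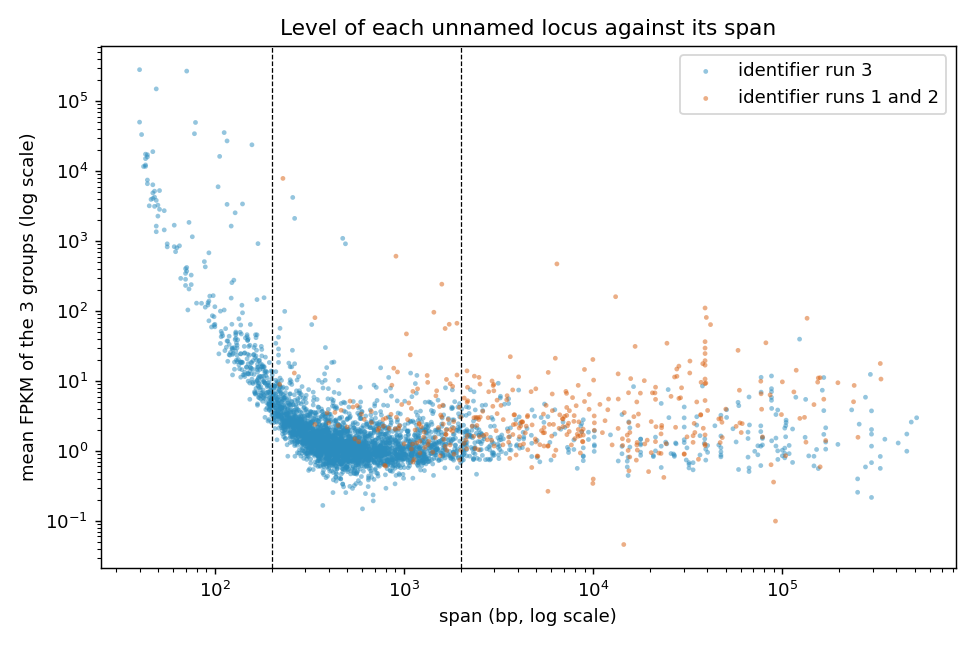
Each point is an unnamed locus, with its span in bp on the horizontal axis and its mean FPKM over the 3 groups on the vertical axis, both on log scales; dashed lines mark 200 and 2000 bp. All 314 loci under 200 bp belong to identifier run 3, and their level falls steeply with span.

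The span of a long locus is not always its own. Of the 625 loci above 2000 bp, 274 shared their exact span with another row, 171 of them with a named locus. In the class of 200 to 2000 bp 4 members shared a span, and no short locus did. Annotation of a shared span describes the whole stretch and not the member alone.

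Set against GENCODE M21 (GRCm38, the build of the deposited coordinates), 64 members overlapped a small RNA exon, 950 a protein-coding exon, 689 a lncRNA exon and 158 a pseudogene exon, each member counted once by the first of these that applied. Another 405 lay in introns, 1235 outside genes but within 5000 bp of a gene, and 369 further away. The last group was small in number but held 80.6%, 82.9% and 80.2% of the unnamed FPKM. Of the 1235 near a gene, 948 lay next to a protein-coding gene. Loci on the upstream side numbered 641 at a median distance of 602 bp, and loci on the downstream side 594 at a median of 2331 bp. Median mean FPKM was low in both, at 1.37 upstream and 1.24 downstream.

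The 5 highest short loci were all more than 5000 bp from any annotated gene. The highest, 40 bp at chr2:73012734-73012773, stood at 233436, 354504 and 260235 FPKM. Second was 71 bp at chr10:11492119-11492189, nearest to Gm48679, with 220814, 348408 and 240402 FPKM. Both were highest in Ethanol Unaffected, 1.52 and 1.58 times Control, and within 1.11 and 1.09 times Control in Ethanol Affected. The third, 49 bp at chr9:17987795-17987843, stood at 123951, 172813 and 153619 FPKM. The fourth, 40 bp at chr2:83252712-83252751, stood at 48820, 55365 and 46636 FPKM. The fifth, 79 bp at chr17:50420105-50420183, stood at 39307, 64627 and 45279 FPKM. All 5 were highest in Ethanol Unaffected, and 4 of them had Control lowest.

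Among the loci of 200 to 2000 bp, the highest was a 229-bp locus at chr5:79638195-79638423, 392 bp downstream of Gm22553, with 8213, 8284 and 7162 FPKM. A 49-bp member just beside it, at chr5:79638057-79638105, stood at 1181, 2240 and 1500 FPKM. The next 4 repeated the order seen in the short loci. They were chr18:68692061-68692318 with 3527, 5250 and 3867 FPKM, chr2:22744736-22744999 with 1858, 2532 and 1959 FPKM, chr11:109011643-109012116 with 954, 1351 and 985 FPKM, and chr3:5860338-5860827 with 733, 1166 and 850 FPKM. Each of these 4 was 1.36 to 1.59 times Control in Ethanol Unaffected and 1.03 to 1.16 times Control in Ethanol Affected.

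The highest long member by mean lies on the mitochondrial genome and has no usable values. At chrM:9877-16299, over mt-Nd4, mt-Cytb and several tRNA genes, the table gives 1417 FPKM in Control and 0 in both ethanol groups, and at chrM:47-6947, over both ribosomal RNA genes, 0 in all. Both carry the mark for too many fragments, so they were left out of every ratio, but not out of the sums of FPKM. Next came chr3:34184111-34197232, at 80.9, 215 and 185 FPKM. It lies over exons of Sox2ot, a lncRNA whose gene surrounds the stem cell factor Sox2, and of the processed pseudogene Gm5708. This locus was 2.66 times Control in Ethanol Unaffected and 2.29 times in Ethanol Affected. The row that the table names for Sox2ot and Mir1897 covers another stretch and stood at 17.1, 20.1 and 16.2 FPKM, and Sox2 itself stood at 56.3, 57.4 and 65.2 FPKM. A member at chr13:84025299-84064878, in exons of the lncRNA gene Gm17750, stood at 94.4, 91.2 and 57.8 FPKM. The member at chr7:51860007-51994877, a span over Fancf and Gas2 that 2 named rows share, stood at 64.4, 91.6 and 80.9 FPKM. A member of the shared span chr7:127510438-127549409, which holds Srcap and Snora30, stood at 97.3, 67.9 and 167 FPKM.

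Of the 3871 members, 2881 had usable values and a mean of at least 1 FPKM, against 12662 of the named loci, and only these entered the counts of ratios. Ratios were taken on log2(FPKM + 0.1), which understates differences of low loci. Of these members, 107 (3.71%) were at least 2-fold higher in Ethanol Unaffected than in Control, where 1.02% of all loci were, and 131 (4.55%) were at least 2-fold lower, where 1.18% of all loci were. Named loci gave 0.403% and 0.419%. Between Ethanol Affected and Control, 132 members (4.58%) were higher against 1.18% of all loci, and 95 (3.30%) lower against 1.06%. Between the ethanol groups, 224 members (7.78%) were higher in Ethanol Affected against 1.82% of all loci, and 100 (3.47%) lower against 1.11%. The 3 comparisons share their groups in pairs, so these counts are not independent. Members make up a large part of the background itself: 107 of the 158 loci at least 2-fold higher in Ethanol Unaffected than in Control were unnamed.

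The middle of the members moved little. Their median log2 ratio was -0.07 in Ethanol Unaffected against Control, 0.07 in Ethanol Affected against Control and 0.14 in Ethanol Affected against Ethanol Unaffected, and the named loci had 0.01, 0.01 and -0.01. The spread was wider, with interquartile ranges of 0.57, 0.59 and 0.77 in the members and 0.19, 0.33 and 0.46 in the named loci. A wider spread was also seen at matched level: between 1 and 5 FPKM the interquartile ranges were 0.56, 0.58 and 0.73 over 2301 members and 0.21, 0.34 and 0.44 over 3542 named loci. Equal FPKM does not mean equal numbers of fragments, and the median span was 502 bp in all members and 20100 bp in all named loci. Between 200 and 2000 bp the ranges were 0.60, 0.62 and 0.76 over 2066 members, with medians of -0.08, 0.07 and 0.15. Over the 257 named loci of that span they were 0.16, 0.31 and 0.36, with medians of 0.13, -0.20 and -0.32. Among the span classes of members the short ones were the widest, with 1.00, 0.87 and 1.17. The 27 of 254 named loci under 200 bp with a mean of at least 1 FPKM had 6.80, 4.07 and 6.58. Of the 254, however, 235, 244 and 230 are listed at 0 in the groups, so those 27 could pass through a single group where they are high, and they give no reference for the short members. Their shortest spans also rest on few bases, and the share of the spread that comes from counting was not tested.

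The split by strand run and by annotation was uneven between the ethanol groups. In the third run, 215 of 2537 members (8.47%) were at least 2-fold higher in Ethanol Affected than in Ethanol Unaffected and 86 (3.39%) lower. In the runs with a strand 9 of 344 (2.62%) were higher, near the 1.82% of all loci, and 14 (4.07%) lower. Loci within 5000 bp downstream of a gene had a median log2 ratio of 0.30 between these groups, with 58 of 396 higher and 13 lower, and loci upstream had 0.15, with 40 of 467 higher and 12 lower. Protein-coding exon members had 0.23, with 46 of 757 (6.08%) higher and 9 (1.19%) lower, the latter near the 1.11% of all loci. Intronic members had 0.11 (31 of 285 higher, 9 lower), lncRNA exon members -0.03 (23 of 527 in each direction) and pseudogene exon members -0.21 (5 of 135 higher, 15 lower). In each of these classes with a positive median, Ethanol Unaffected was at or below Control and Ethanol Affected above it.

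The named gene next to a member gave a direct reference. A gene beside several members entered once for each of them, so the pairs below are not all of separate genes. For 232 downstream members whose neighbour was named and had a mean of at least 1 FPKM, the median log2 ratio of Ethanol Affected to Ethanol Unaffected was 0.40, and that of the genes was 0.03. At least 2-fold, 32 of these members were higher and 6 lower, where 1.82% and 1.11% of all loci were. None of their genes was, and among all named loci 0.466% and 0.569% were. Members upstream of a gene (361 pairs) had 0.11 and their genes 0.16, and members in protein-coding exons (477 pairs) had 0.26 and their genes 0.16. Levels differed widely, with medians of 1.62 FPKM for the downstream members and 14.6 FPKM for their genes. Across the 232 downstream pairs Pearson's r of the log2 ratios was 0.21, given as a description only, since both values come from the same pooled libraries.

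**Figure D3:**
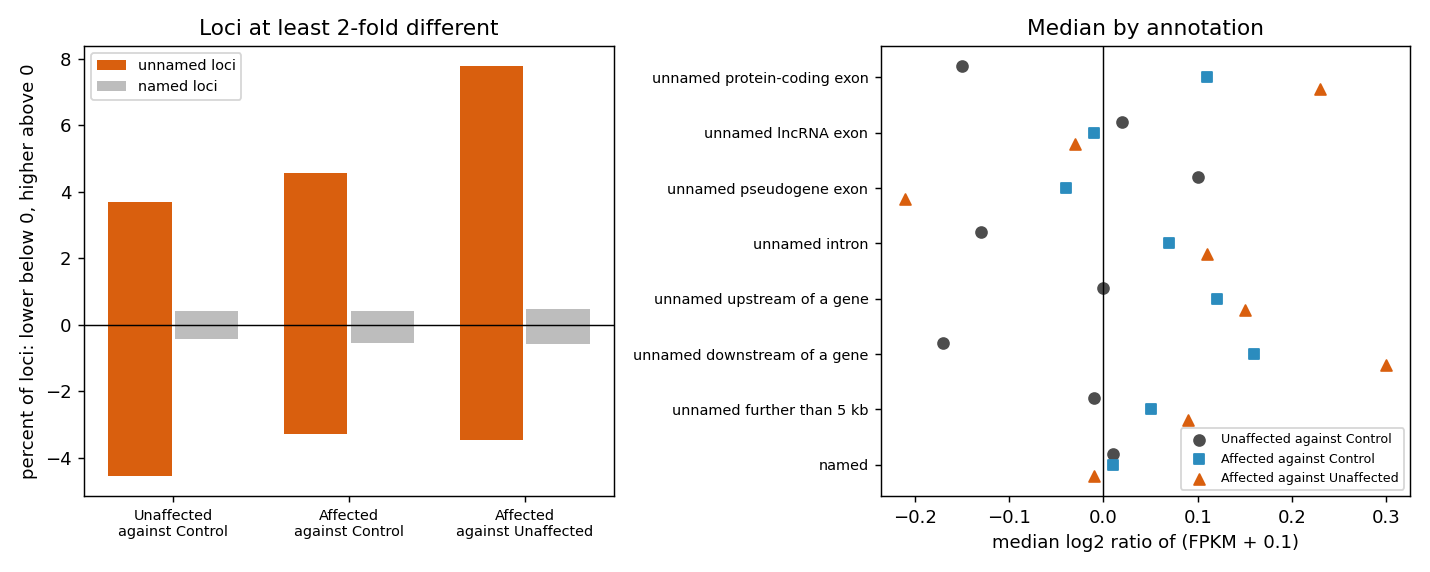
Left, bars above 0 give the percent of loci at least 2-fold higher and bars below 0 the percent at least 2-fold lower in each comparison, for unnamed and named loci with a mean of at least 1 FPKM; the unnamed bars reach 7.78% higher in Ethanol Affected against Ethanol Unaffected. Right, each symbol is the median log2 ratio of a class of unnamed loci, with named loci at the bottom; downstream members stand at -0.17, 0.16 and 0.30.

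Between Ethanol Unaffected and Control, the highest ratios on the log2(FPKM + 0.1) scale belonged to a pair of loci listed at 0 in Control. A 61-bp locus at chr18:67908458-67908518, in the pseudogene AC127236.1 and 95.1% identical to Tuba1a, is listed at 0 in Control and stood at 1002 and 1496 FPKM in the ethanol groups. Another at chr7:54412171-54412390, in the pseudogene Gm5776, is listed at 0 in Control and stood at 18.1 and 8.81 FPKM. It has 1 mismatch in 220 bases to Mrps33, which encodes a protein of the small mitochondrial ribosomal subunit and stood at 89.8, 95.3 and 66.0 FPKM.
Lowest was the ratio of a 54-bp locus at chr19:40119764-40119817, 5814 bp downstream of Cyp2c50, which stood at 8006, 99.3 and 73.6 FPKM. Control was thus 80.6 times Ethanol Unaffected and 109 times Ethanol Affected there. As FPKM times kilobases the 3 values are 432, 5.36 and 3.97.

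Other members named by size in this comparison were lower in level. A locus at chr13:83715266-83742667 shares its span with the named row for C130071C03Rik and Mir9-2, the latter a microRNA gene of neural development, and stood at 0.264, 2.93 and 0.608 FPKM, while the named row stood at 38.7, 37.9 and 36.5 FPKM. At chr2:181835790-181835959, 1895 bp upstream of Pcmtd2, a member stood at 0.838, 6.45 and 10.3 FPKM, and Pcmtd2 at 13.0, 12.9 and 12.1 FPKM. Lower in Ethanol Unaffected were chr3:101471305-101471448, 8246 bp downstream of Igsf3, with 13.1, 1.34 and 20.4 FPKM, and chr2:170075602-170075863, 3786 bp downstream of Tshz2, with 2.73, 0.348 and 1.02 FPKM. An intronic member of Socs2 at chr10:95388482-95388665 stood at 3.59, 0.553 and 4.93 FPKM, and Socs2, a feedback inhibitor of cytokine signalling, at 30.2, 30.7 and 32.4 FPKM. A second member of the Srcap span at chr7:127510438-127549409 stood at 2.93 FPKM in Control and 0.657 FPKM in Ethanol Affected and is listed at 0 in Ethanol Unaffected.

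The next members were among the largest differences of Ethanol Affected from Control. The locus at chr6:144587783-144625687, over exons of Sox5, stood at 2.85, 9.52 and 40.8 FPKM, 14.3 times Control in Ethanol Affected. The named row of Sox5, a transcription factor of deep-layer cortical neurons, covers another stretch and stood at 15.6, 13.0 and 24.3 FPKM. A 252-bp intronic locus of Gm20696 at chr6:99622625-99622876 stood at 0.204, 1.35 and 4.16 FPKM. Lower in Ethanol Affected was chr9:122904181-122911483, over exons of the annotated pseudogene Zkscan7 and with a span shared by another member, with 1.30, 1.97 and 0.116 FPKM, 11.2 times lower than Control. Also lower than Control were chr1:115667415-115667590 with 12.8, 5.07 and 2.10 FPKM and chr6:34203634-34213674 with 21.4, 5.11 and 4.47 FPKM, the ethanol groups standing close together at the latter. At chr17:79933331-79933378, a 48-bp locus, values were 6816, 7162 and 1563 FPKM.

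Between the ethanol groups, the 5 largest differences in each direction included members already described. Igsf3's downstream locus was 15.2 times higher in Ethanol Affected. A 191-bp locus at chr9:53681166-53681356, in the lncRNA gene Gm16124, stood at 2.59, 0.462 and 4.99 FPKM, 10.8 times higher. An intronic locus of Gm20388 at chr8:123468656-123468808 stood at 5.82, 1.07 and 9.55 FPKM, 8.91 times higher. In the other direction, chr3:105098043-105098275 stood at 2.24, 7.05 and 1.31 FPKM. In all 4 of these members Control lay nearer, by ratio, to Ethanol Affected than to Ethanol Unaffected. Over these spans of 144 to 233 bp, the highest FPKM times kilobases in any group was 2.93.

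The 50 members with a mean of at least 1000 FPKM showed their own order, and this limit was chosen after the values were seen. Of them, 46 were short. The group value was highest in Ethanol Unaffected for 34 of the 50, and for 23 the full order was Ethanol Unaffected, Ethanol Affected, Control. This does not hold for the members at large. Of the 2881 with a mean of at least 1 FPKM, 777 (27.0%) were highest in Ethanol Unaffected, against 41.7% of named loci. For the 50, the median log2 ratio was 0.46 in Ethanol Unaffected against Control and 0.10 in Ethanol Affected against Control. The 96 named loci at that level were also highest in Ethanol Unaffected in 85 cases, but their medians were 0.14 and -0.39, and 5 followed the full order. The named ribosomal RNA precursor Rn45s stood at 311, 639 and 381 FPKM, in the same order as the 23 members. Whether ribosomal or other structured RNA plays a part in these members was not tested.

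**Figure D4:**
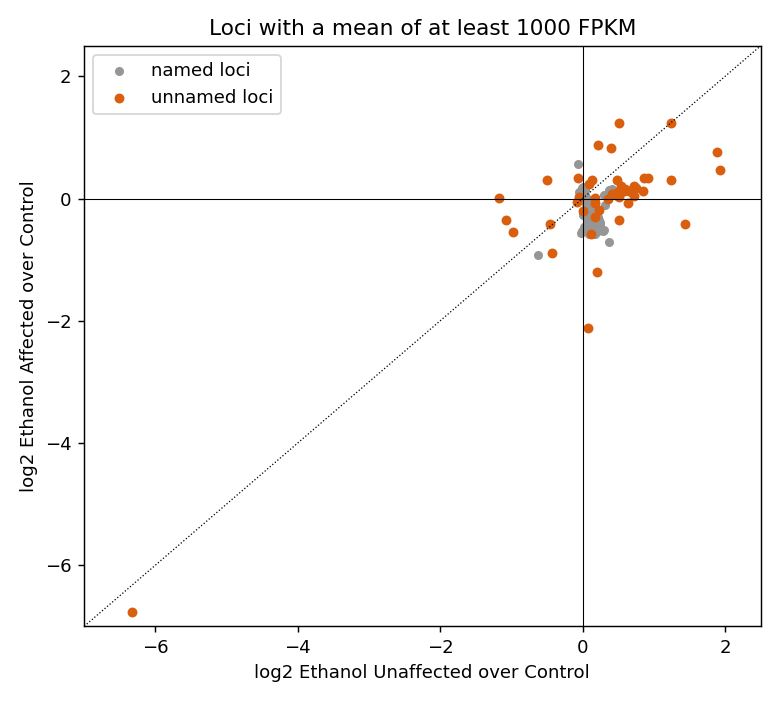
Each point is a locus with a mean of at least 1000 FPKM, with the log2 ratio of Ethanol Unaffected to Control on the horizontal and of Ethanol Affected to Control on the vertical axis; the dotted line marks equal ratios. The 50 unnamed loci centre at 0.46 and 0.10 and the 96 named loci at 0.14 and -0.39, and the point at the lower left is the 54-bp locus of chromosome 19.

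Members in small RNA exons were named because the function of their RNA is known, after their values were seen. Apart from long spans there were 13, of which 5 were short, and 8 of the 13 were highest in Ethanol Unaffected, 3 in Control and 2 in Ethanol Affected. Of all loci with a mean of at least 1 FPKM 39.0% were highest in Ethanol Unaffected, as were 27.0% of the members and 41.7% of the named loci. Of the loci with a mean of at least 1000 FPKM most were, but among the 13 only those at Rny3 and Mir6236 reach that level. None of these sets matches the 13 in level, so this tally is not read as a trait of small RNA loci. The Rny3 locus stood at 1585, 2476 and 1501 FPKM and the Rny1 locus at 44.4, 50.4 and 42.7 FPKM, so both Y RNAs were highest in Ethanol Unaffected, by 1.56 and 1.14 times Control. The Rn7sk locus stood at 54.1, 90.8 and 47.7 FPKM, 1.68 times Control in Ethanol Unaffected. Of the small nuclear RNA pair, Gm24407 stood at 43.0, 85.0 and 50.9 FPKM and Gm24265 at 113, 107 and 125 FPKM. In Ethanol Unaffected these near-identical copies were 1.98 and 0.945 times Control, and in Ethanol Affected 1.18 and 1.11 times. Reads that fit both cannot be assigned with certainty. The locus of 106 bp at chr9:110281262-110281367 overlapping Mir6236 stood at 14195, 20267 and 14387 FPKM. Named genes of the same kind, the RNase MRP RNA Rmrp with 16.2, 37.6 and 19.2 FPKM and the RNase P RNA Rpph1 with 6.32, 18.6 and 10.3 FPKM, also had their highest value in Ethanol Unaffected. Most of these RNAs lack a poly(A) tail, and how evenly the libraries recovered them was not tested.

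Chromosome Y carried 4 members, and their values differed with position. The locus at chrY:1046737-1048763, in the lncRNA gene Gm29650, stood at 0.478 and 2.06 FPKM in Control and Ethanol Unaffected and is listed at 0 in Ethanol Affected. The locus at chrY:1086477-1086712, 10149 bp downstream of Uty, stood at 0.253 and 4.21 FPKM and is listed at 0 in Ethanol Affected. Named genes of the male-specific region had that pattern too: Kdm5d stood at 1.67, 5.45 and 0.00182 FPKM and Ddx3y at 2.66, 8.40 and 0.00906 FPKM. Xist, which is expressed from the inactive X chromosome of females, stood at 9.24, 0.0210 and 10.3 FPKM. By these genes Ethanol Unaffected was male, Ethanol Affected was female and Control held both sexes. In every comparison above sex and group thus cannot be told apart, and between the ethanol groups they coincide. The other two members, near the end of the chromosome, were similar in all groups: chrY:90737213-90739641 stood at 2.10, 2.26 and 1.99 FPKM and chrY:90739826-90740578 at 0.743, 0.886 and 0.959 FPKM. The named locus Erdr1 stood at 105, 114 and 116 FPKM, likewise even across the groups.

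**Figure D5:**
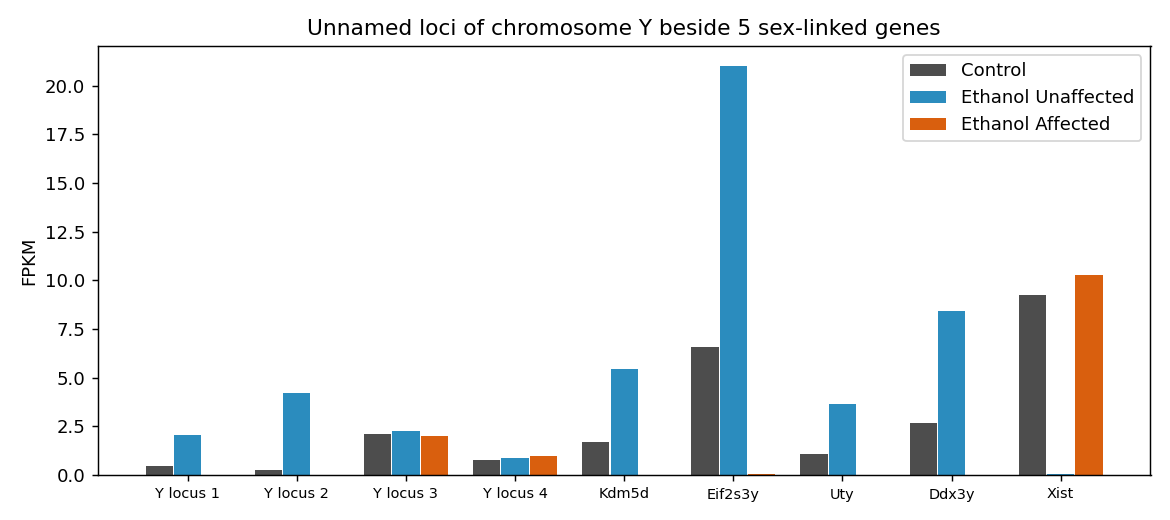
Bars give the FPKM of each group for the 4 unnamed loci of chromosome Y, numbered from the start of the chromosome, beside 4 genes of its male-specific region and Xist. The first 2 loci reach 2.06 and 4.21 FPKM in Ethanol Unaffected and are listed at 0 in Ethanol Affected, while the last 2 are even across groups.

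A last set of 8 members lies on chromosome 1 before its first annotated gene, which starts at position 3073253. Their coordinates fall inside those of named loci that the table places on scaffolds outside the chromosomes. Both members at chr1:10777-39121, 1 in each strand run, match Vamp7 at 10738 to 39148 of a chromosome X scaffold, and stood at 5.43, 6.10 and 5.39 FPKM and at 17.7, 17.0 and 14.3 FPKM. The members at chr1:159700-258412 (3.49, 4.15 and 2.30 FPKM) and chr1:272732-333972 (2.62, 2.66 and 2.11 FPKM) fall inside the span of Tmlhe and Zf12 at 159647 to 334187 of that scaffold. Those at chr1:101641-103796 (1.75, 1.69 and 1.55 FPKM) and chr1:103878-106383 (1.43, 1.61 and 1.75 FPKM) fall inside Spry3 at 101352 to 106392, and also inside a row of a chromosome 5 scaffold named for E330014E10Rik and Gm3286, at 82559 to 110906. The pair at chr1:52674-54479 (8.75, 6.55 and 9.87 FPKM) and chr1:54721-59689 (8.95, 6.34 and 7.96 FPKM) begins and ends exactly where the pseudogene Pisd-ps3 does on an unplaced scaffold. All 35 scaffold loci, these included, are listed at 0 in every group. The match is one of coordinates only, and where these 8 loci truly lie was not tested.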

How the data were processed

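The authors made libraries with the Illumina TruSeq RNA kit, sequenced them and aligned reads to mm10, for which the methods name STAR as well as Bowtie and TopHat, while the submitters' processing notes list Bowtie2 2.2.4.0, Cufflinks and Cuffdiff. The deposited FPKM values were computed by the authors with the Cufflinks suite, 1 per group and locus over 3 fetuses, so depth per fetus is unknown and no interval, test or leave-one-out value could be computed. FPKM divides by length, and its precision at short loci was not given. The table also holds the authors' fold changes, test statistics, p-values and q-values, which were not used. Columns of single fetuses numbered 0.

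Members were taken by the dash in the gene field, and locus starts, which count from 0, were raised by 1. Ratios used log2(FPKM + 0.1) for loci with a mean of at least 1 FPKM, without loci marked as having too many fragments. A locus was counted as different at 2-fold or more. Annotation came from GENCODE M21 (GRCm38) by overlap, without strand. Sequences of members of at most 300 bp came from its transcripts where the member lay within 1 exon (213 of 826), and copies were sought with exact seeds of 14 bases. Sequences of all loci, base composition and the box B motif were not analysed here. Loci were named by rule: the 5 highest per span class, the 5 largest differences in each direction and comparison, and members of chromosome Y and the mitochondrial genome with a mean of at least 1 FPKM. Others were chosen after their values were seen: the remaining members of those chromosomes, the small RNA and pseudogene loci, the high-level set and the loci at the start of chromosome 1. The members and lists were chosen with earlier results of these data known. Counting and annotation were tested on simulated data. Python 3.11.15, pandas 2.3.3, numpy 2.4.6 and matplotlib 3.10.9 were used.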

Additional observations from a re-analysis of the deposited data

How the results depend on the processing

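Leaving out single fetuses, and any paired analysis, was not possible with 1 value per group. No paired analysis was possible because the columns carry no replicate numbers. The share of summed FPKM in unnamed loci depended on the shortest loci: without loci under 200 bp it was 4.05%, 4.17% and 4.33% in Control, Ethanol Unaffected and Ethanol Affected, and without the 10 loci of the highest mean FPKM 29.9%, 31.1% and 33.0%. With exon-overlapping members left out of the unnamed set it was 60.7%, 66.8% and 65.5%.

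Of 66 counts under alternatives, 46 stayed within 1.5 times the reported count. In the order higher and lower, for Ethanol Unaffected against Control, Ethanol Affected against Control and Ethanol Affected against Ethanol Unaffected, a pseudocount of 1 FPKM gave 51 and 49, 65 and 44, and 89 and 50 (1.77% and 1.70%, 2.26% and 1.53%, and 3.09% and 1.74% of members, where named loci gave 0.316% to 0.450%). A mean of at least 5 FPKM gave 36 and 33, 39 and 33, and 45 and 37, out of 580 members in place of 2881. As shares these were 6.21% and 5.69%, 6.72% and 5.69%, and 7.76% and 6.38%, against the reported 3.71% and 4.55%, 4.58% and 3.30%, and 7.78% and 3.47%, and named loci under that filter gave 0.263% to 0.406%. A fold limit of 1.5 gave 288 and 404, 435 and 262, and 623 and 321. Named loci at that limit gave 0.742% and 0.553%, 0.766% and 1.60%, and 3.52% and 3.50%, so between the ethanol groups their share was also far above that at 2-fold. With a mean of at least 0.1 FPKM, or no filter, 205 were higher in Ethanol Affected than in Control, out of 3865 or 3867 members (5.30%, where named loci gave 0.722% and 0.667%).

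Against the reported -0.07, 0.07 and 0.14, the medians were -0.04, 0.05 and 0.09 with a pseudocount of 1 FPKM, and 0.00, 0.05 and 0.05 with a mean of at least 5 FPKM, where that of Ethanol Unaffected against Control was no longer negative. The other medians kept their sign. In Ethanol Affected against Control it was 0.08 with a pseudocount of 0.01 FPKM, 0.10 with a mean of at least 0.1 FPKM or no filter, 0.06 when scaled to named loci or without loci under 200 bp, and 0.08 without loci of shared span, an alternative added after the data were seen. Between the ethanol groups it was 0.16 with a mean of at least 0.1 FPKM or no filter and 0.13 without loci under 200 bp, and scaling to named loci gave -0.08 in Ethanol Unaffected against Control. The cause of these shifts was not tested.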
